A study of Neogale vison with 6 samples.

Results

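The genes described here are the D and E cyclins with the kinases they switch on: the cyclin genes CCND1, CCND2, CCND3, CCNE1 and CCNE2, the cyclin-dependent kinase genes CDK2, CDK4 and CDK6, and CDC25A, a phosphatase that activates CDK2. They were picked out by gene symbol from a table of 24526 genes. Of the 9 symbols, 7 were found, and CCND1 and CCND2 could not be matched by symbol and were not analysed here. All 7 genes passed the filter on low counts. RNA was sequenced from Mv1Lu cells, an epithelial line from mink lung that is widely used to study growth arrest, in 3 untreated libraries (control) and 3 cholesterol depleted libraries (CD). The CD cells were kept for 16 h in medium with 10% lipoprotein deficient serum (LPDS), 50 μM lovastatin, a statin that blocks HMG-CoA reductase, and 50 μM mevalonate, the product of that enzyme. The comparison therefore covers the serum change, the statin and the mevalonate together, which cannot be told apart in these 2 groups.

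In the textbook account, mitogens induce D cyclins, which bind CDK4 and CDK6. These complexes begin the phosphorylation of the RB proteins and loosen their hold on the E2F transcription factors. E2F factors then drive genes for DNA replication and the E cyclins, and cyclin E with CDK2, freed of inhibitory phosphates by CDC25A, completes the step into S phase. CDK inhibitors of the INK4 family bind CDK4 and CDK6, while p21 and p27 bind the cyclin E-CDK2 complex.

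Between 13473820 and 18633764 reads per control library, and between 14426841 and 16309954 per CD library, were counted on genes. Spread between libraries was larger in CD, with a biological coefficient of variation of 0.214 against 0.0838 in control. Over all tested genes, edgeR called 24.8% higher and 22.9% lower in CD at a false discovery rate under 0.05. Of 8 genes tested among those that respond to low sterol, 7 rose and 0 fell by edgeR, DESeq2 and limma-voom (0 fell also at an unadjusted edgeR p under 0.05). One of them was IDI1, of isoprenoid synthesis, at 574.9 ± 57.8 CPM (counts on a gene per 1000000 counted reads, after scaling by edgeR) in control and 2459.8 ± 455.5 in CD (SD, n = 3 each).

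The epithelial label is that of the cell line, and most reads on the epithelial markers found here were on keratins. Of 5 epithelial markers tested, 1 rose, 2 fell and 2 did not pass the test, with a median log2 fold change of 0.06. Over all tested genes 24.8% were called higher and 22.9% lower, and no difference from these shares is read from 5 genes. KRT7 was at 7126.3 ± 265.0 CPM in control and 1255.5 ± 156.2 in CD, and KRT19 was at 936.0 ± 66.9 and 458.4 ± 77.1 (SD, n = 3), so both fell. CLDN4, a tight junction gene named after its value was seen, rose from 0.603 ± 0.231 to 7.03 ± 1.11 CPM (SD, n = 3, edgeR false discovery rate, FDR, 9.61e-06). EPCAM and CDH1 were near 0, with 7 and 8 reads over the 3 control libraries and 2 and 18 over the 3 CD libraries. The summed level of the 8 epithelial markers found, most of it KRT7, ran from 7733.6 to 8384.9 CPM in control and from 1493.1 to 1957.8 in CD. The 8 lung epithelial markers summed to at most 2.72 CPM in any library, and SFTPB, SFTPC and AQP5 were at 0. Among them SCGB1A1, a club cell gene, had a log2 fold change of -1.21 (edgeR FDR 0.0125, and 0.0566 by DESeq2), and NKX2-1, a lung lineage factor, had 23 reads in control and 9 in CD.

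Markers of other cell types also differed between the groups. The 8 fibroblast markers summed to between 309.9 and 387.4 CPM in control and between 182.8 and 232.5 in CD, with THY1 at 0, and they included the collagen genes COL1A2 (212.0 ± 24.6 against 163.8 ± 19.5, SD, n = 3) and COL3A1 (97.3 ± 14.3 against 29.5 ± 5.08). The call on COL1A2 (FDR 0.0403) was lost under 6 of 16 other settings, including those without each control library in turn. Of 5 fibroblast markers tested, 4 fell, beside 22.9% of all tested genes called lower. PDGFRA did not pass (log2 fold change -0.04, FDR 0.921). DCN and LUM, below the filter on low counts, went the other way, with 3 and 7 reads in control and 15 and 35 in CD. The 6 endothelial markers summed to between 206.3 and 221.2 CPM in control and between 75.9 and 123.8 in CD, with ERG at 0. Nearly all of this sum was TEK, an angiopoietin receptor gene (215.0 ± 7.79 against 101.6 ± 24.5, SD, n = 3), while VWF had 5 reads in control and 56 in CD. The 5 immune markers found summed to between 5.64 and 6.89 CPM in control and between 21.8 and 26.9 in CD, and CD68 (log2 fold change 1.85) and CSF1R (2.16) rose. All libraries came from the Mv1Lu line, so these values are read as levels of genes and not as numbers of other cell types. In bulk RNA, fewer cells with a transcript and less of it per cell cannot be told apart. The part of these shifts in the results on the cyclins was not tested.

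All 7 genes were lower in CD than in control. In edgeR's quasi-likelihood test over 12148 genes, 7 of 7 were called lower and 0 higher at an FDR under 0.05, where 22.9% of all tested genes were called lower and 24.8% higher (47.7% either way). In all 7 the highest CD library was below the lowest control library, as was so for 28.6% of tested genes (58.0% had groups without overlap in either direction). The median log2 fold change of the 7 genes was -1.55, beside 0.06 over all tested genes and -0.88 over the genes called lower. With 5 of the genes at least 2-fold lower, the falls ran from 1.59-fold for CDK6 to 14.2-fold for CCNE2. Levels below are CPM scaled by library, not corrected for transcript length, so they are compared between groups for 1 gene and never between genes.

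**Figure D1:**
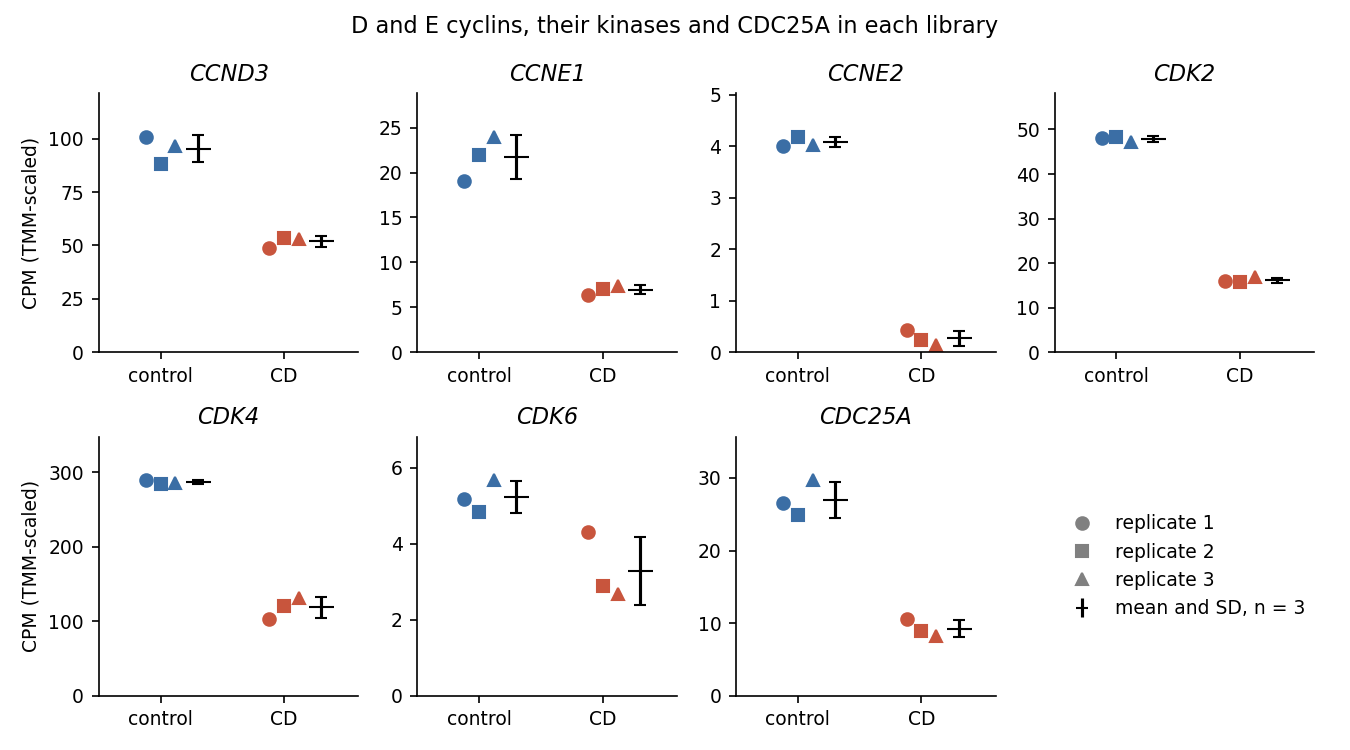
Level of each gene in CPM (vertical axis, from 0) in the 3 control and 3 CD libraries. Points are libraries and bars give the mean with its SD. In every panel the 3 CD points lie below the 3 control points, with the narrowest gap in CDK6 (4.84 in the lowest control library, 4.3 in the highest CD library).

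CCND3 (ENSNVIG00000012598) encodes cyclin D3, the D cyclin measured here. Its level was 101, 88.4 and 96.6 CPM in control libraries 1 to 3 and 49.0, 53.7 and 53.0 CPM in CD libraries 1 to 3. The CD libraries lay close together and all were under the lowest control library. The means were 95.4 ± 6.41 and 51.9 ± 2.57 CPM (SD, n = 3), a log2 fold change of -0.88 (SE 0.11, 95% interval -1.13 to -0.62, edgeR FDR 0.000173). CCND3 transcript in CD was thus 54.4% of the control level (95% interval 45.6 to 64.9%). Its fall equalled the median fall of all genes called lower, and 11.7% of tested genes had a lower fold change.

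CDK4 (ENSNVIG00000003287) encodes a kinase partner of the D cyclins. Its 13169 control reads and 5476 CD reads were the most of the 7 genes. The level was 289.7, 284.4 and 286.0 CPM in control libraries 1 to 3 and 103.6, 120.6 and 131.4 CPM in CD. Control libraries were nearly identical, with a coefficient of variation of 0.957% where counting error alone would give 1.51%. CD libraries varied by 11.8% where counting error alone would give 2.34%. The means of 286.7 ± 2.74 and 118.5 ± 14.0 CPM (SD, n = 3) gave a log2 fold change of -1.27 (SE 0.12, 95% interval -1.54 to -1.01, edgeR FDR 1.99e-05), or 2.42-fold lower. CD library 1 was the lowest, and without it the log2 fold change was -1.17.

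CDK6 (ENSNVIG00000017691) encodes the other kinase partner of the D cyclins. Its fall was the least of the 7 and the least secure. The level was 5.16, 4.84 and 5.67 CPM in control libraries 1 to 3 and 4.3, 2.88 and 2.67 CPM in CD, from 242 and 154 reads. CD library 1 stood well above the other two CD libraries and just under the controls. The means were 5.23 ± 0.42 and 3.28 ± 0.889 CPM (SD, n = 3), a log2 fold change of -0.67 (SE 0.23, 95% interval -1.18 to -0.15, edgeR FDR 0.0374). CDK6 in CD was 63.0% of control with a wide 95% interval of 44.0 to 90.2%. The coefficient of variation in CD was 27.1%, and 14.0% would come from counting alone.

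The CDK6 call held in 11 of 16 other settings, among them a fit on recovered reads that equalled the raw counts. It was lost when libraries were scaled by their total counts (FDR 0.0604), and without control library 1 (0.0914), control library 2 (0.0698), control library 3 (0.13) or CD library 2 (0.0966), with log2 fold changes from -0.72 to -0.60 in these settings. With CD library 1 left out the log2 fold change was -0.9, and with CD library 3 left out it was -0.58, so the direction was the same in all 16 settings. DESeq2 gave -0.70 with an adjusted p of 0.0466.

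CCNE2 (ENSNVIG00000001622) encodes cyclin E2. Its transcript fell more than that of any other of the 7 genes. The level was 4.01, 4.19 and 4.02 CPM in control libraries 1 to 3 and 0.43, 0.245 and 0.144 CPM in CD, from 56, 58 and 73 reads and from 7, 4 and 2 reads. Control libraries lay within 0.2 CPM of each other and every CD library was far below them. The control coefficient of variation of 2.48% was below the 12.7% that counting error alone would give. The means of 4.08 ± 0.101 and 0.273 ± 0.145 CPM (SD, n = 3) gave a log2 fold change of -3.83 (SE 0.32, 95% interval -4.55 to -3.11, edgeR FDR 1.13e-05). CD held 7.03% of the control level (95% interval 4.26 to 11.6%), and CCNE2 ranked 16 from the lowest of the 12148 fold changes. The spread in CD was 53.1% of the mean where counting 13 reads would give 48.0%, and the log2 fold change ran from -4.29 without CD library 1 to -3.6 without CD library 3.

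CCNE1 (ENSNVIG00000020059) encodes cyclin E1, the other E cyclin. Its level was 19.1, 22.0 and 24.0 CPM in control libraries 1 to 3 and 6.39, 7.06 and 7.42 CPM in CD. The groups were far apart, with no CD library near a control. The means of 21.7 ± 2.47 and 6.96 ± 0.521 CPM (SD, n = 3) gave a log2 fold change of -1.64 (SE 0.17, 95% interval -2.02 to -1.27, edgeR FDR 3.88e-05), 3.12-fold lower.

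CDK2 (ENSNVIG00000022106) encodes the kinase that E cyclins activate. Its level was 48.1, 48.4 and 47.1 CPM in control libraries 1 to 3 and 15.9, 15.7 and 16.8 CPM in CD. The coefficients of variation, 1.49% in control and 3.63% in CD, were below the 3.7% and 6.34% that counting error alone would give. The means of 47.9 ± 0.713 and 16.1 ± 0.584 CPM (SD, n = 3) gave a log2 fold change of -1.57 (SE 0.12, 95% interval -1.85 to -1.29, edgeR FDR 7.42e-06). This was the lowest FDR of the 7 genes, with CDK2 at 33.7% of control (95% interval 27.8 to 40.8%).

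CDC25A (ENSNVIG00000023165) encodes the phosphatase that removes inhibitory phosphates from CDK2. The level was 26.5, 24.9 and 29.7 CPM in control libraries 1 to 3 and 10.6, 8.9 and 8.21 CPM in CD. Every CD library was well below the lowest control library. The SD was 2.46 CPM in control and 1.21 CPM in CD (n = 3), and the log2 fold change was -1.55 (SE 0.16, 95% interval -1.92 to -1.18, edgeR FDR 4.83e-05), and CD held 34.2% of control (95% interval 26.5 to 44.1%). CCNE1, CDK2 and CDC25A thus had fold changes of 3.12, 2.97 and 2.93 with 95% intervals that overlap.

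**Figure D2:**
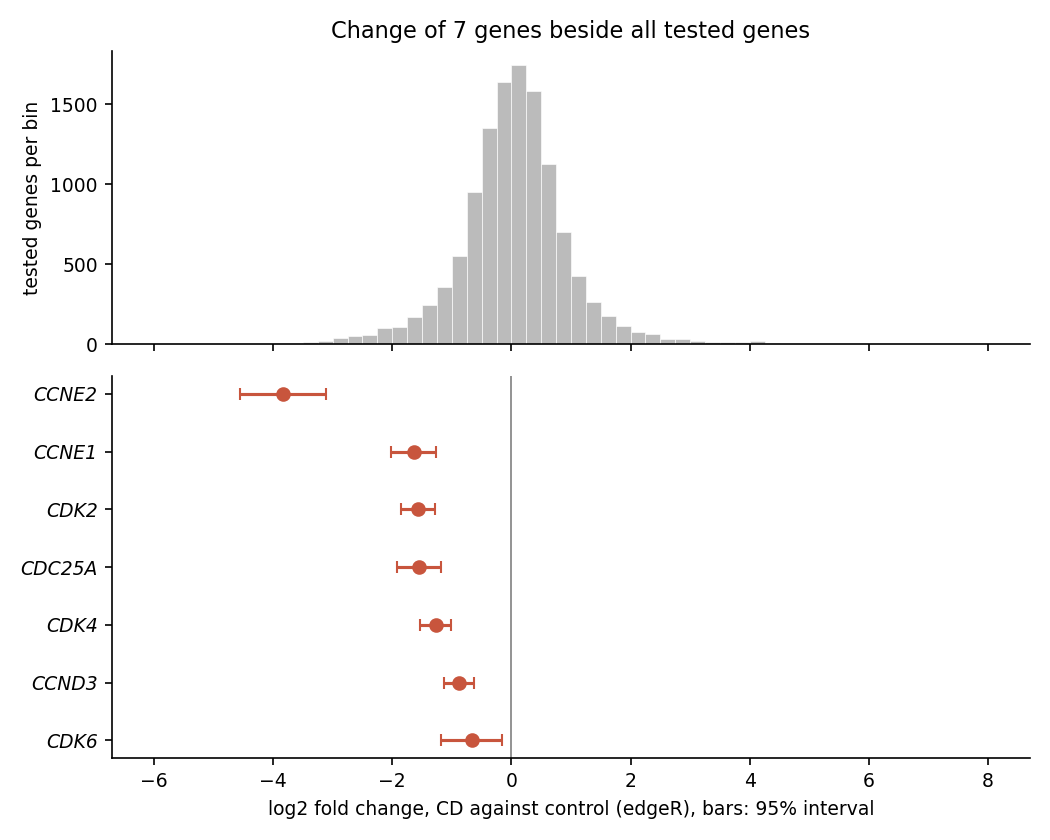
Log2 fold change of the 7 genes in CD against control from edgeR (horizontal axis, points with 95% intervals), beside the number of all 12148 tested genes at each log2 fold change. All 7 lie below 0, from -3.83 for CCNE2 to -0.67 for CDK6, while the median of all tested genes was 0.06.

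Ordered by log2 fold change, the genes ran CCNE2, CCNE1, CDK2, CDC25A, CDK4, CCND3 and CDK6. Each neighbouring pair after CCNE2 had overlapping 95% intervals, and only the interval of CCNE2 lay wholly apart from those of the other 6. The genes of the cyclin E step (CCNE1, CCNE2, CDK2 and CDC25A) had log2 fold changes of -1.55 or lower, and those of the cyclin D step (CCND3, CDK4 and CDK6) of -1.27 or higher, although the intervals of CDK4 and of CCNE1, CDK2 and CDC25A overlap. The difference between both steps was not tested as such.

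Pairs of genes were also compared as log2 ratios within each library, with a prior count of 2 scaled to library size, which pulls ratios of genes with few reads toward 0. The log2 ratio of CCNE1 to CCNE2 was 2.21, 2.36 and 2.54 in control libraries 1 to 3 and 3.54, 4.26 and 4.78 in CD, a difference of 1.83 between group means of 2.37 ± 0.16 and 4.19 ± 0.62 (SD, n = 3). The groups did not overlap, and the two-sided exact permutation p was 0.1, the smallest that 3 against 3 libraries allow (0.167 after Benjamini-Hochberg adjustment over 5 pairs). With a prior count of 0.5 the difference was 2.23, and with 1 library left out it ran from 1.53 (without CD library 3) to 2.15 (without CD library 1). Because transcript lengths differ, only the change of a ratio is read and not its size.

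The same counts can be given as shares of reads, which restate this ratio without the prior count and are not a separate observation. CCNE2 took 17.4, 16.0 and 14.4% of the reads on both E cyclins in control libraries 1 to 3, and 6.31% (exact Clopper-Pearson 95% interval 2.57 to 12.6), 3.36% (0.923 to 8.38) and 1.9% (0.232 to 6.71) in CD. Summed over libraries, 187 of 1193 E cyclin reads were CCNE2 in control, or 15.7% (13.7 to 17.9), and 13 of 335 in CD, or 3.88% (2.08 to 6.54). These intervals cover counting error only.

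Among the kinases of the D cyclins, the log2 ratio of CDK4 to CDK6 was 5.78, 5.84 and 5.62 in control libraries 1 to 3 and 4.55, 5.32 and 5.56 in CD. The means were 5.75 ± 0.11 and 5.14 ± 0.53 (SD, n = 3), a difference of -0.6 (exact permutation p = 0.1, adjusted 0.167). CD library 1 stood apart and CD library 3 was just below the controls. The difference was -0.31 without CD library 1 and -0.81 without CD library 3. CDK6 took 1.75, 1.67 and 1.95% of the reads on both kinases in control and 3.99% (Clopper-Pearson 95% interval 3.12 to 5.01), 2.33% (1.72 to 3.09) and 1.99% (1.4 to 2.73) in CD, so the interval of CD library 3 held the control values and that of CD library 1 did not.

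The other 3 pairs join a cyclin with a kinase it binds, and were added after values had been seen. The log2 ratio of CCND3 to CDK4 was -1.59 ± 0.09 in control and -1.18 ± 0.12 in CD (SD, n = 3), a difference of 0.41 without overlap (exact permutation p = 0.1, adjusted 0.167). This stands beside the 54.4% and 41.3% of control that both transcripts held in CD. CCNE1 to CDK2 was -1.14 ± 0.18 in control and -1.2 ± 0.08 in CD, and CCND3 to CDK6 was 4.16 ± 0.1 and 3.96 ± 0.43 (SD, n = 3). For these pairs the differences of -0.06 and -0.2 were within the spread between libraries (exact permutation p = 0.7 for each, adjusted 0.7), which does not show that both genes of a pair changed alike. Their sign was not stable, since CCNE1 to CDK2 was at 0.03 without control library 3 and CCND3 to CDK6 at 0.05 without CD library 1.

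**Figure D3:**
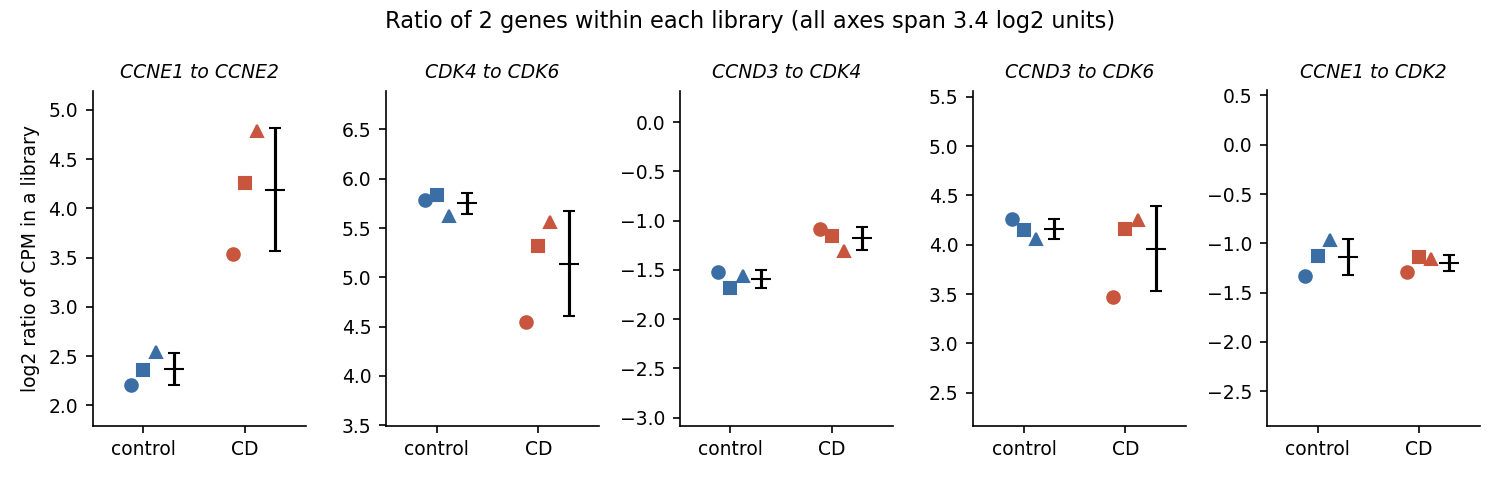
Log2 ratio of the counts of 2 genes within each library (vertical axes), for 5 pairs, in the 3 control and 3 CD libraries, with the mean and SD of each group. CCNE1 to CCNE2 and CCND3 to CDK4 were higher in all CD libraries than in control, CDK4 to CDK6 was lower, and the other two pairs overlapped.

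Under 16 other settings of scaling, filter, tool, block and left-out library, CCND3, CCNE1, CCNE2, CDK2, CDK4 and CDC25A were called lower each time. These include a fit on reads recovered from the deposited normalized signal, which equalled the raw counts, so its agreement was fixed in advance. The span of log2 fold changes with 1 library left out was -0.93 to -0.83 for CCND3, -1.73 to -1.57 for CCNE1, -1.64 to -1.55 for CDK2, -1.39 to -1.17 for CDK4 and -1.65 to -1.48 for CDC25A.

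**Figure D4:**
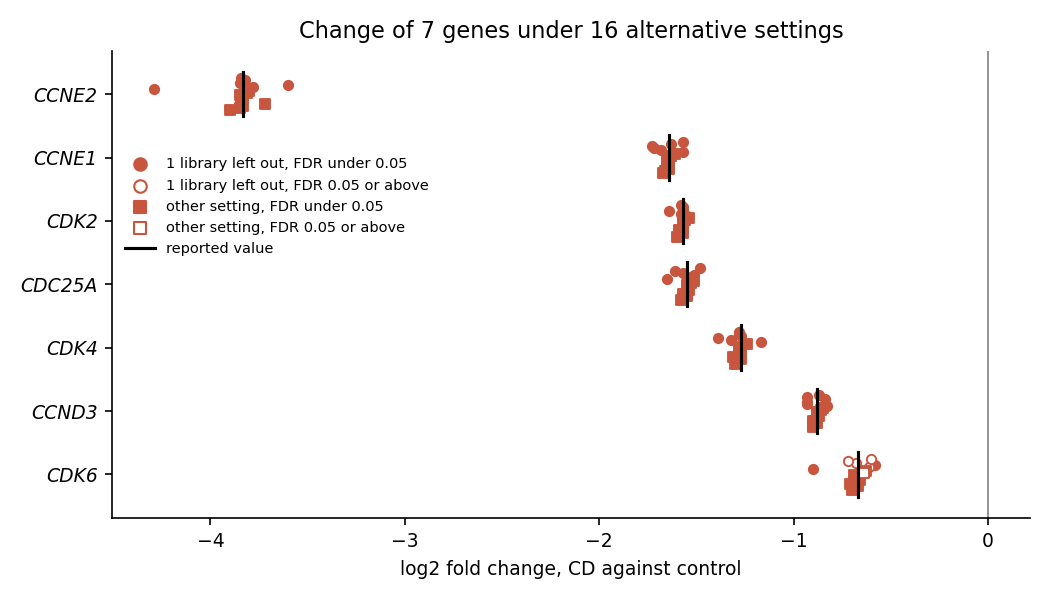
Log2 fold change of the 7 genes in CD against control (horizontal axis) as reported and under each of the 16 other settings, with filled points for calls at an FDR under 0.05 and open points for values that did not pass. All points lie below 0, and the open points are the 5 of CDK6.

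Other genes of the pathway were read in 7 lists, each beside the 24.8% of all tested genes called higher and the 22.9% called lower. Of 8 CDK inhibitors, 5 were tested, of which 4 rose and 1 fell, with a median log2 fold change of 0.49. CDKN2B, which encodes the INK4 inhibitor p15, rose from 139.2 ± 3.83 to 356.8 ± 76.7 CPM (SD, n = 3, log2 fold change 1.36, SE 0.15, edgeR FDR 7.27e-05). CDKN1B, the p27 gene, rose by 0.86 (SE 0.13, FDR 0.000407) and CDKN1A, the p21 gene, by 0.44 (SE 0.11, FDR 0.00951). CDKN2D, the p19 INK4 gene, rose by 0.49 (FDR 0.0248), a call lost without any 1 of the control libraries or CD library 2 (FDR 0.072 to 0.0896). CDKN3, which encodes a phosphatase that acts on CDKs, fell by 0.97 on the log2 scale (FDR 0.0118).

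Among RB proteins, E2F factors and their partners, 3 of 15 tested genes rose, 6 fell and 6 did not pass the test (24.8% higher and 22.9% lower over all tested genes), with a median of -0.15, and RBL1 was at 0 in every library. The genes that rose were RBL2, the p130 pocket protein gene, with a log2 fold change of 1.15 (FDR 0.00274), E2F5, a repressor E2F, with 1.09 (FDR 0.00111) and RB1 with 0.90 (FDR 0.0219). The RB1 call was lost without control library 2 (FDR 0.0869), control library 3 (0.0905) or CD library 1 (0.0543). On the lower side were E2F8, an atypical repressor, with -3.78 (FDR 1.13e-06), E2F1, an activator, with -1.93 (FDR 3.89e-06) and LIN9, a subunit of the DREAM and MuvB complexes, with -1.09 (FDR 0.00611). E2F4, also a repressor E2F and named after its value was seen, fell with -0.90 (FDR 0.000191).

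All 24 tested of 33 listed E2F target genes of the G1/S transition fell, with a median log2 fold change of -2.61, beside 22.9% called lower over all tested genes. The lowest were CDC6 (-4.49, FDR 2.1e-06) and CDT1 (-3.96, FDR 2.79e-07), both of replication licensing, and UHRF1, of DNA methylation maintenance (-3.96, FDR 9.75e-08). At the other end were RRM1, a ribonucleotide reductase subunit (-0.45, FDR 0.00429), SLBP, of histone mRNA processing (-0.92, FDR 0.00135), and RFC4, a clamp loader subunit (-1.29, FDR 0.000531). CCNE2 with -3.83 lay below the median of these genes, and CCNE1 with -1.64 above it.

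Of 8 tested genes of CDK activation and CDC25 control, 2 rose, 3 fell and 3 did not pass, with a median of -0.09. The number that rose is near the 24.8% of all tested genes. CDC25B and CDC25C, the phosphatases related to CDC25A, had log2 fold changes of -2.15 (FDR 6.3e-07) and -2.12 (FDR 0.000331). The inhibitory kinases went different ways, with WEE1 at 0.91 (FDR 0.00032) and PKMYT1 at -0.74 (FDR 0.00106). CDK7, the CDK-activating kinase, was at 0.55 (FDR 0.0291), which did not pass without any 1 of the control libraries or CD library 2 (FDR 0.0566 to 0.135).

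Among ubiquitin ligase subunits and cofactors that act on D and E cyclins, p27 and CDC25A, 7 of 20 tested genes rose, 4 fell and 9 did not pass, with a median of 0.22. Without control library 3 the number that rose was 4. The number that fell is near the 22.9% of all tested genes, and 24.8% of all tested genes rose. CRYAB, a small heat shock protein gene, had a log2 fold change of 2.99 (FDR 1.05e-06), FBXW7, the receptor for phosphorylated cyclin E, of 1.09 (FDR 0.00123), and the adaptor SKP1 of 0.76 (FDR 0.00454). CDC20, an activator of the anaphase promoting complex, had -2.79 (FDR 3.04e-07), and SKP2 (-0.83, FDR 0.000772) and CKS1B (-0.83, FDR 0.00154), which together mark p27 for degradation, both fell.

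Of 18 tested genes listed as mitogenic regulators of D cyclin transcription, 12 rose, 0 fell and 6 did not pass in edgeR, with a median of 0.61. MYCN was at 0 in every library. The list does not sort genes by whether they raise or lower D cyclins, and CCND3 was the only D cyclin measured. At an unadjusted p under 0.05 the number lower was also 0, as it was by DESeq2 and limma-voom. The AP-1 gene JUN rose from 37.4 ± 2.5 to 395.9 ± 47.3 CPM (SD, n = 3, log2 fold change 3.41, FDR 1.56e-07). ETS2 was at 2.08 (FDR 7.17e-06) and JUND at 1.72 (FDR 0.000911, and 0.0669 without CD library 3). The least rises among the called genes were JUNB at 0.56 (FDR 0.00722), TCF7L2, a Wnt pathway factor, at 0.59 (FDR 0.00721, and 0.0522 without control library 1), and RELA, an NF-κB subunit, at 0.60 (FDR 0.00149). MYC, named after its value was seen, was at 0.97 (FDR 0.000143). Without CD library 1, 1 gene of this list was called lower.

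Of 19 other cyclins and CDKs tested, 6 were higher, 5 were lower and 8 did not pass, with a median of 0.22 (CCNA1 was at 0 in every library). These counts lie near the shares of all tested genes called higher (24.8%) and lower (22.9%). The lowest were cyclin genes of the later cycle, CCNF (-2.77, FDR 2.19e-07), CCNA2 (-2.23, FDR 3.74e-06, also counted among the E2F targets) and CCNB2 (-1.80, FDR 6.98e-06). CDK18 (1.59, FDR 0.00102), CCNG2, an atypical cyclin linked to arrest (1.21, FDR 0.000333), and CDK17 (1.09, FDR 0.00142) were the highest.

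**Figure D5:**
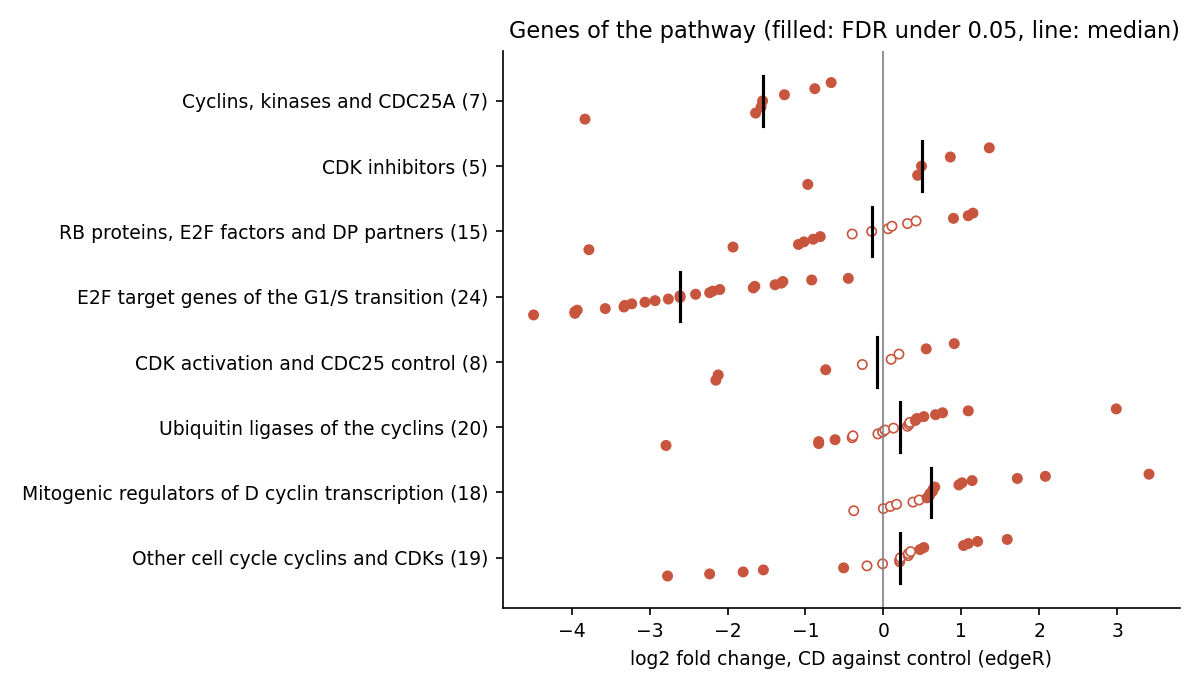
Log2 fold change in CD against control (horizontal axis) of each tested gene in the 7 cyclin, kinase and phosphatase genes and in 7 lists of the pathway (rows, number tested in parentheses). Filled points passed an FDR under 0.05 and the black line is the median. The E2F targets lie wholly below 0 (24 of 24 called lower), as the 7 genes do, while CDK inhibitors and mitogenic regulators lie mostly above it.

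Genes that flank the 7 on the genome were also read. The RefSeq annotation of mink assembly ASM_NN_V1, used for names and order only, places 14 protein-coding genes next to them, of which 9 were tested here. Among these, edgeR, DESeq2 and limma-voom each called 0 lower and 4 higher (0 lower also at an unadjusted edgeR p under 0.05): TAF8 beside CCND3 (0.83, FDR 0.00123), URI1 beside CCNE1 (0.54, FDR 0.0181), TP53INP1 beside CCNE2 (1.08, FDR 0.00065) and TSPAN31 beside CDK4 (0.58, FDR 0.00715). Over all tested genes 24.8% were called higher and 22.9% lower, and no difference from these shares is read from 9 genes. The other 5 had log2 fold changes from -0.21 for INTS8, beside CCNE2, to 0.39 for FAM133B. In that annotation 0 of the 14 overlapped its neighbour. The sources used here give no strand setting for the counting, so reads of an antisense transcript cannot be told apart from those of each gene.

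CCNE2, the gene with the largest change of the 7, was compared with all other tested genes over the 6 libraries. The highest Pearson r of log2 CPM were those of FANCI (0.9993), DDX31 (0.9991), NAPEP (0.999), CNTFR (0.9988) and CDCA2 (0.9988), all of which differ between the groups in the same direction (log2 fold changes of -2.55, -0.86, -1.54, -3.38 and -2.69). With the group means subtracted, other genes came first, namely GDE (0.9997), DDI2 (0.9996), FOLH1 (0.9995), PITPNB (0.9988) and SETD7 (0.9977). The first measure holds the difference between the groups, and the second rests on 13 CCNE2 reads in CD.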

How the data were processed

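RNA was taken from 3 control and 3 CD libraries of Mv1Lu cells. The authors selected poly(A) RNA, made Nextera XT libraries, trimmed reads with fastp 0.20.1 and aligned them with STAR 2.7.2a to the mink assembly NNQGG.v01. The counting tool and its strand setting are not given in the sources used here. The authors deposited raw counts per gene, used for all results, and a normalized signal per library, gene counts divided by size factors (R 4.0.3, DESeq2 1.30.1 in their methods). In the deposited signal 100.0% of 147156 values gave whole reads within 0.01 reads. The gene identifiers beside that signal are in another order than the values (2 of 24526 in place), so values were joined to the counts by row. The 4 rows naming no gene held 29.32 to 47.2% of reads per control library and 31.12 to 41.37% per CD library, and were left out.

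Symbols were matched in the count table, from which 24526 genes entered. Here counts were filtered with filterByExpr (minimum count 10, minimum total 15), scaled by TMM and tested with edgeR 4.0.16 (robust quasi-likelihood, R 4.3.3), CD against control, with Benjamini-Hochberg adjustment over 12148 genes at a threshold of 0.05. Log2 ratios of a pair of genes used a prior count of 2 (0.5 as an alternative) and a two-sided exact permutation test over libraries. Alternatives were DESeq2 1.42.0, limma-voom (limma 3.58.1), total count scaling, other filters and prior counts, a replicate block, a threshold of 0.01 and each library left out. edgeR on the recovered reads and 3 of the pairs were added after the data were seen. The fitting code was tested on simulated counts with known changes.

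The genes and lists were chosen with earlier results of these data known. Named were all genes of interest and CDK inhibitors, in each pathway list the called genes at both ends of the fold changes, 3 at each end, in each sterol or marker list the 2 genes of highest mean CPM, and the 5 genes most like CCNE2. A sterol response gene that this rule names is not reported here. Nothing in the labels says that replicates were separate cultures, so p-values measure the spread between these libraries, which may be technical. The labels give no batch. Near-identical copies may share reads. Replicate libraries were compared, and 3 libraries per group were used.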

Additional observations from a re-analysis of the deposited data

How the results depend on the processing

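In CD, 7 genes of interest were lower and 0 higher, and 6 were lower with total count scaling, at a threshold of 0.01, and without control replicate 1, 2 or 3 or CD replicate 2, where CDK6 did not pass. Over all genes 3016 were higher and 2784 lower; at the threshold of 0.01, 2006 were higher and 2036 lower, and with 1 library left out 2216 to 3616 were higher and 2194 to 3606 lower. The replicate numbers are not shown to pair libraries (r of deviations -0.02, -0.33 and -0.18), and a replicate block gave 2772 higher, 2636 lower and all 7 genes of interest lower, while the calls on CDK7 (0.0608), JUND (0.0722) and COL1A2 (0.0609) were lost. Reads recovered from the normalized signal equalled the raw counts row by row, so their fit was bound to repeat the reported one. It gave 3016 higher and 2784 lower of 12146 tested. Among the lists, genes of CDK activation and CDC25 control called higher went from 2 to 1 at 0.01 and with the block. The same was so without control replicate 1, 2 or 3 or CD replicate 2. CDK inhibitors called lower went from 1 to 0 at 0.01. The cause of these changes was not tested. Depth limits CCNE2 in CD (13 reads) and CDK6 (154 reads).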
